A study of Bombyx mori with 64 samples.

Results

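Of the 106 miRNA probes on an oligonucleotide array of the silkworm Bombyx mori, 34 gave a signal under 1000 in each of the 18 specimens of fifth-instar day 3 larvae. They were chosen by that value, averaged over the pair of slides that each specimen had, and 1000 is the signal the study set as its threshold of expression. Its lists of expressed miRNAs asked for that signal in more than 1 specimen, whereas 1 was enough for the counts here. The other 72 probes reached 1000 in at least 1 of these specimens. During metamorphosis, 21 of the 34 probes (61.8%) reached 1000 in at least 1 of 14 specimens, and 13 did not, against 87.7% of all 106 probes that reached it. Only 8 of the 21 were in any specimen both at 1000 or more and above the control spots named blank on the same arrays. The fat body carried the highest signal among the 34, that of SW-100 in the pupa, and a small number of probes differed between tissues on all 3 scales of the arrays that were tried.

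The metamorphosis specimens were body wall and fat body of day 7 larvae, at the onset of spinning (0 h), at the start of the prepupa (0 h) and of day 1 pupae, and silk gland and midgut at the first 3 of these stages. The larval specimens were ovary, testis and, separately from females and males, hemocyte, head, malpighian tubule, fat body, midgut, body wall and the silk gland in its anterior and posterior parts. All came from the bivoltine strain DaZao, no treatment or mutation is named, and the metamorphosis specimens are labelled as a mixture of both sexes. Each specimen was 1 RNA sample on 2 slides, so that the 64 arrays stand for 32 specimens, every combination of tissue and stage was measured once, and the number of animals behind a specimen is not given in the sources used here. The title of the fat body pupa says day 2, whereas its code and source name say day 1, which was used. The array holds no probe for a protein-coding marker of these tissues, so the tissue labels could not be checked on it.

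A miRNA is a short RNA that pairs with sites in messenger RNAs and lowers their translation or stability. In insects, miRNAs take part in the timing of development, the growth of tissues and the use of fat stores. At metamorphosis of the silkworm the silk gland spins the cocoon and is then broken down, the larval gut is replaced, the epidermis of the body wall forms new cuticle, and the fat body, which stores fat, sugar and protein, is remodelled. The probes are numbered SW-1 to SW-106, and which miRNA a number stands for is not given in the sources used here. By the methods, a large part of the probes was designed for miRNAs of other organisms that have no match in the silkworm genome. A few were for antisense strands of miRNAs, and some repeat a miRNA. A low signal of a numbered probe can therefore not be read as the absence of a named silkworm miRNA.

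In day 3 larvae, the highest signal of a member lay between 210 and 993 (median 676), as the rule requires, against 1004 to 78944 (median 3533) for the other probes. Just inside the threshold were SW-105 with 993 in the malpighian tubule of males, SW-62 with 960 in the body wall of males and SW-60 with 933 in the head of females. Just outside were SW-96 with 1004, SW-78 with 1019 and SW-65 with 1040, each in the body wall of males. The threshold thus separated neighbours of nearly equal signal.

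The body wall and the malpighian tubule of the larvae stood apart from the other larval specimens. Of the 34 members, 27 had their larval maximum there, 14 of them in the body wall of males. Their arrays carry the same stamps (sessions) as most metamorphosis arrays, whereas those of the other 14 larval specimens carry earlier ones. The 3 control spots named blank gave 988 to 2377 in the body wall and the malpighian tubule and 7.2 to 159 in the other 14 specimens. When these 4 specimens were left out of the rule, 57 probes stayed under 1000 in the other 14 larval specimens in place of 34, and 44 of them reached it in metamorphosis. The part that the session or the blank signal has in the choice of members was not tested.

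The members with a larval maximum elsewhere were few. SW-103 gave 790 and 738 in the fat body of females and males, and at most 282 in the other larval specimens. SW-104 had 723 in the anterior silk gland of females, against 232 in that of males. SW-95 had 707 and 672 in the heads of females and males. SW-10, the lowest of all, reached 210 in the midgut of males.

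The metamorphosis arrays were scaled separately from the larval ones, so levels of the 2 sets were placed side by side without a test. In metamorphosis 21 of 34 members reached 1000 (61.8%), against all 72 other probes, and 87.7% of the 106 probes. The members stayed lower in size as well. Their highest signal in metamorphosis lay between 73.8 and 4943 (median 1393), and that of the other probes between 1068 and 77566 (median 6489). At 2000 or more were 9 members, and none was at 5000, against 37 of the other probes.

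**Figure D1:**
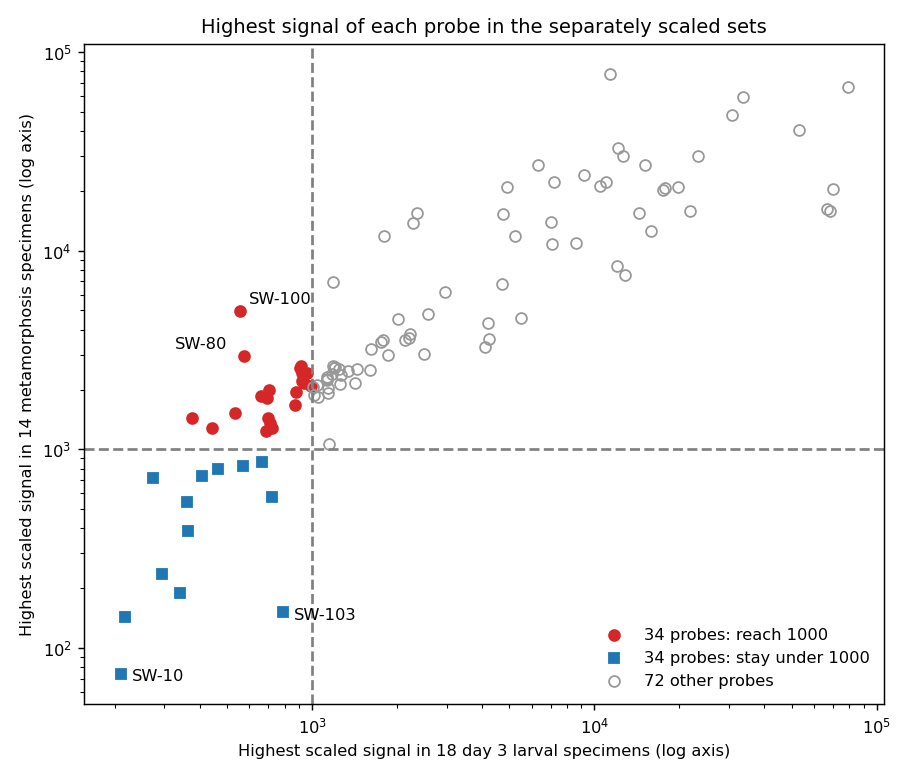
Each point is a probe, with its highest scaled signal in the 14 metamorphosis specimens on the y axis and in the 18 day 3 larval specimens on the x axis, both logarithmic, and dashed lines at 1000. The 34 members lie left of the vertical line by their choice, 21 of them (circles) above the horizontal line and 13 (squares) below it; SW-100 and SW-80 are the highest and SW-10 the lowest.

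The maxima of the 21 probes were concentrated in the last larval stage of 2 tissues. In the silk gland of day 7 larvae 14 of the 21 had their highest signal, and in the midgut of day 7 larvae 4. These 2 specimens shared a session, whereas the body wall and the fat body of day 7 larvae were from other sessions. Among day 7 larvae, tissue and session can thus not be told apart. SW-3 was highest in the silk gland of prepupae, SW-80 in the fat body at the onset of spinning and SW-100 in the fat body of pupae. In the silk gland or the midgut of day 7 larvae, 20 of the 21 were at 1000 or more, 14 of them in both, and SW-100 was the exception. Without these 2 specimens, which were set aside after the data were seen, 13 members reached 1000.

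Counted by specimen, 20 members were at 1000 in the silk gland of day 7 larvae, 7 at the onset of spinning and 9 in prepupae, against 91, 75 and 75 of all 106 probes. The midgut had 14, 5 and 6 members at the same stages, against 84, 67 and 73 of all probes. The body wall had 0, 1, 6 and 3 members over its 4 stages, against 31, 43, 63 and 50 of all probes, and the fat body 2, 3, 2 and 3, against 41, 53, 52 and 52. Over all specimens, 81 of 476 pairs of a member and a specimen were at 1000 or more, against 769 of 1008 pairs for the other probes. All probes together also had their highest median signal in the silk gland of day 7 larvae (2315) and their lowest in the body wall of day 7 larvae (388), the specimens with the most and the fewest members at 1000. Of the 21 members, 5 were at 1000 in exactly 1 specimen, 4 in exactly 2 and 12 in 3 or more, 8 of these in 5 or more.

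**Figure D2:**
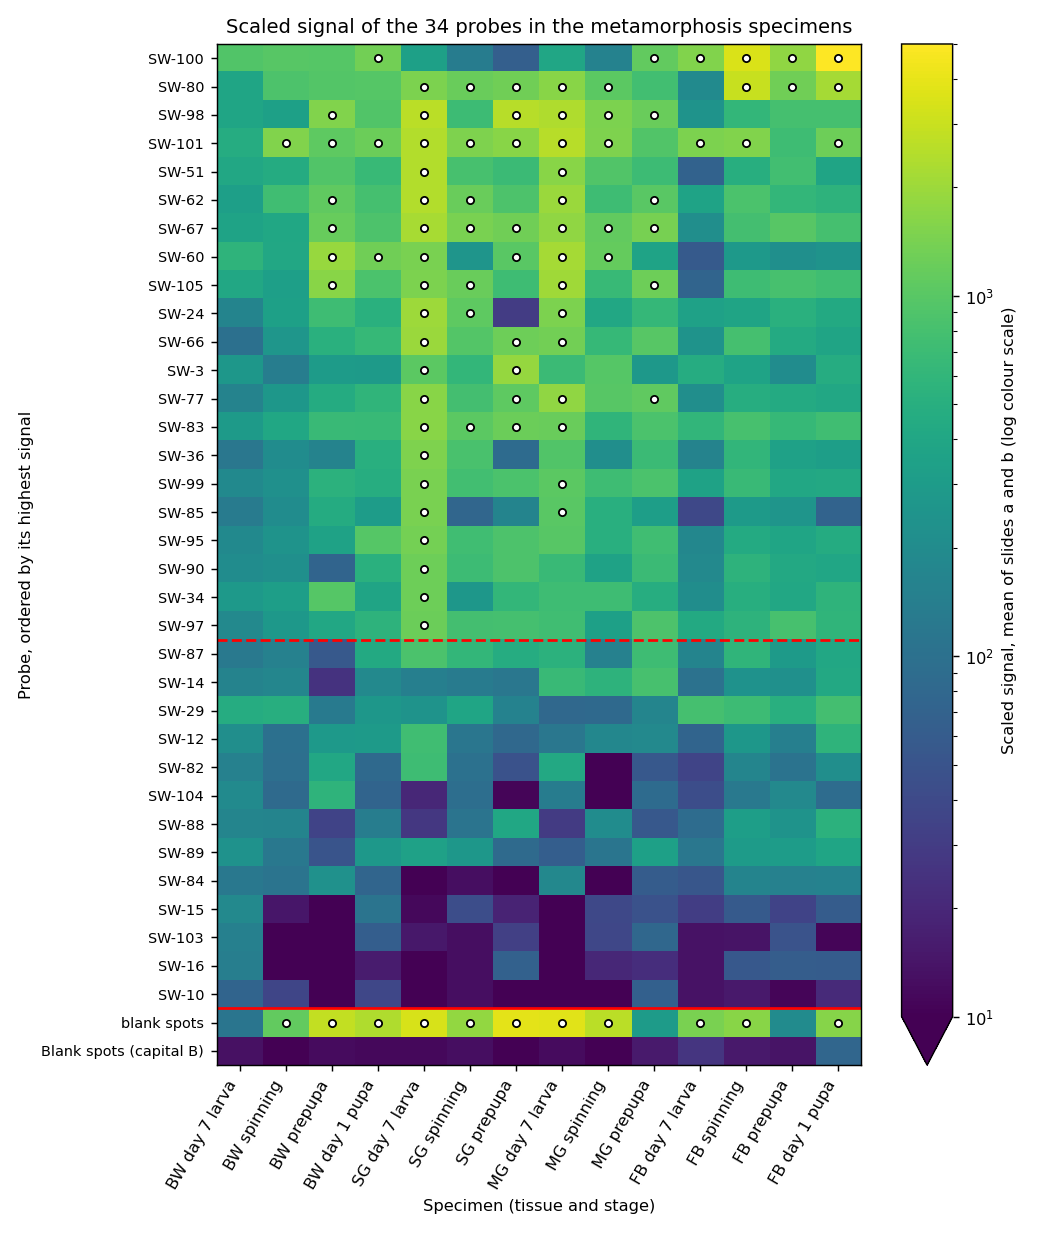
Rows are the 34 members in the order of their highest signal, then the control spots named blank and Blank, and columns are the 14 specimens by tissue (FB fat body, MG midgut, SG silk gland, BW body wall) and stage; colour is the scaled signal on a log scale and a dot marks 1000 or more. The dashed line parts the 21 members that reach 1000 from the 13 that do not, the dots crowd in the silk gland and midgut of day 7 larvae, and the blank spots carry a dot in 11 of the 14 columns.

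The control spots named blank were bright on the same arrays. What they hold is not given in the sources used here. Their signal was 1110 to 3856 in 11 of the 14 metamorphosis specimens, and 113, 303 and 201 in the body wall of day 7 larvae, the midgut of prepupae and the fat body of prepupae. The 6 spots named Blank, with a capital, stayed between 7.1 and 78.7 throughout. At the onset of spinning, the 2 slides of the silk gland gave 457 and 3156 for the blank spots.

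Few of the members' signals at 1000 exceeded them. Of the 81 pairs at 1000 or more, 15 (18.5%) were also above the blank spots of the same arrays, against 504 of 769 (65.5%) for the other probes. They came from 8 members. SW-62, SW-67, SW-77, SW-98 and SW-105 were above the blank spots at 1000 or more only in the midgut of prepupae, SW-101 in the fat body of day 7 larvae and the body wall at the onset of spinning, SW-80 in 3 fat body specimens, and SW-100 in all 4 fat body specimens and the midgut of prepupae. Some of these held for the mean of the slides only. On slide a of the fat body of day 7 larvae, SW-100 (1480) and SW-101 (1531) were below the blank spots (1695). On slide b of the fat body pupa, SW-80 (1394) was below them (1707). The 20 and 14 members at 1000 in the silk gland and midgut of day 7 larvae were all below the blank spots there, which stood at 3401 and 3748.

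Irrespective of the threshold, members were above the blank spots in 88 pairs, 81 of which fell in the 3 specimens with dim blank spots. In these 3 specimens 23 to 32 of the members exceeded the blank spots, and in the other 11 specimens 0 to 2 did (28 to 42 of all 106 probes). In the 3 specimens with dim blank spots, 7 members were at 1000 or more. The part of the blank signal in the members' values was not tested.

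**Figure D3:**
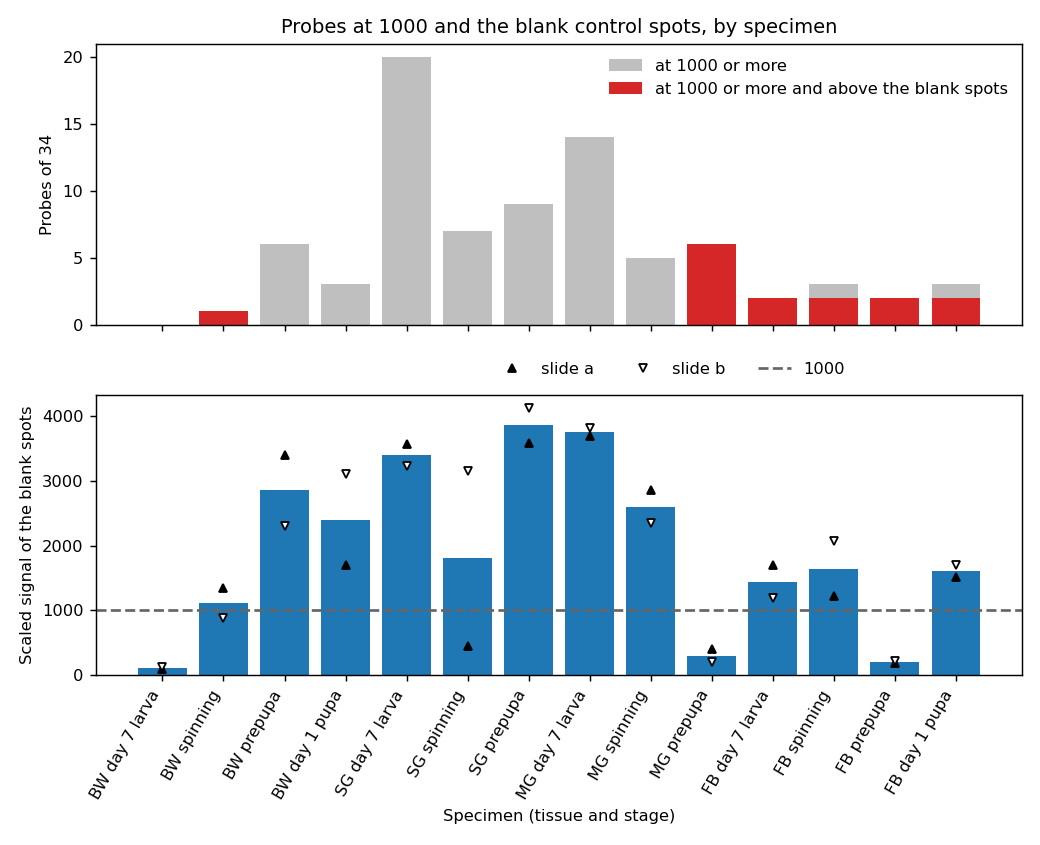
Upper panel, number of the 34 members at 1000 or more in each specimen (grey) and of those also above the blank spots (red); lower panel, scaled signal of the blank spots as the mean of 2 slides (bars), with slides a and b as triangles and a dashed line at 1000. The 20 and 14 members of the silk gland and midgut of day 7 larvae hold no red part, and all 6 of the midgut of prepupae are red.

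SW-100 had the highest signal of the members and was highest in the fat body at every stage. Its fat body signals were 1549, 3519, 1774 and 4943 from day 7 larvae to day 1 pupae, against 920, 995, 966 and 1334 in body wall, 343, 135 and 65.8 in the silk gland, and 394, 157 and 1114 in the midgut. No specimen of the other tissues reached the lowest fat body value, and the slides of the silk gland of day 7 larvae were apart, at 677 and 9.0. The 2 slides of the fat body pupa gave 5189 and 4697, those at the onset of spinning 2916 and 4122. At the onset of spinning the fat body, body wall and silk gland were from 1 session, and SW-100 had 3519, 995 and 135 there, in that order. In day 3 larvae, scaled separately, it had 95.8 and 302 in the fat body of females and males and at most 554, in the body wall of females.

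SW-80 was also highest in the fat body, but not at all stages. Its fat body signals were 194, 2949, 1292 and 2165 from day 7 larvae to day 1 pupae. The body wall had 389, 886, 948 and 983, the silk gland 1480, 1202 and 1296, and the midgut 1638, 1054 and 756. In day 7 larvae the fat body thus gave the lowest of its 14 values, and at the onset of spinning the highest. The slides of the fat body pupa differed, with 2936 and 1394.

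**Figure D4:**
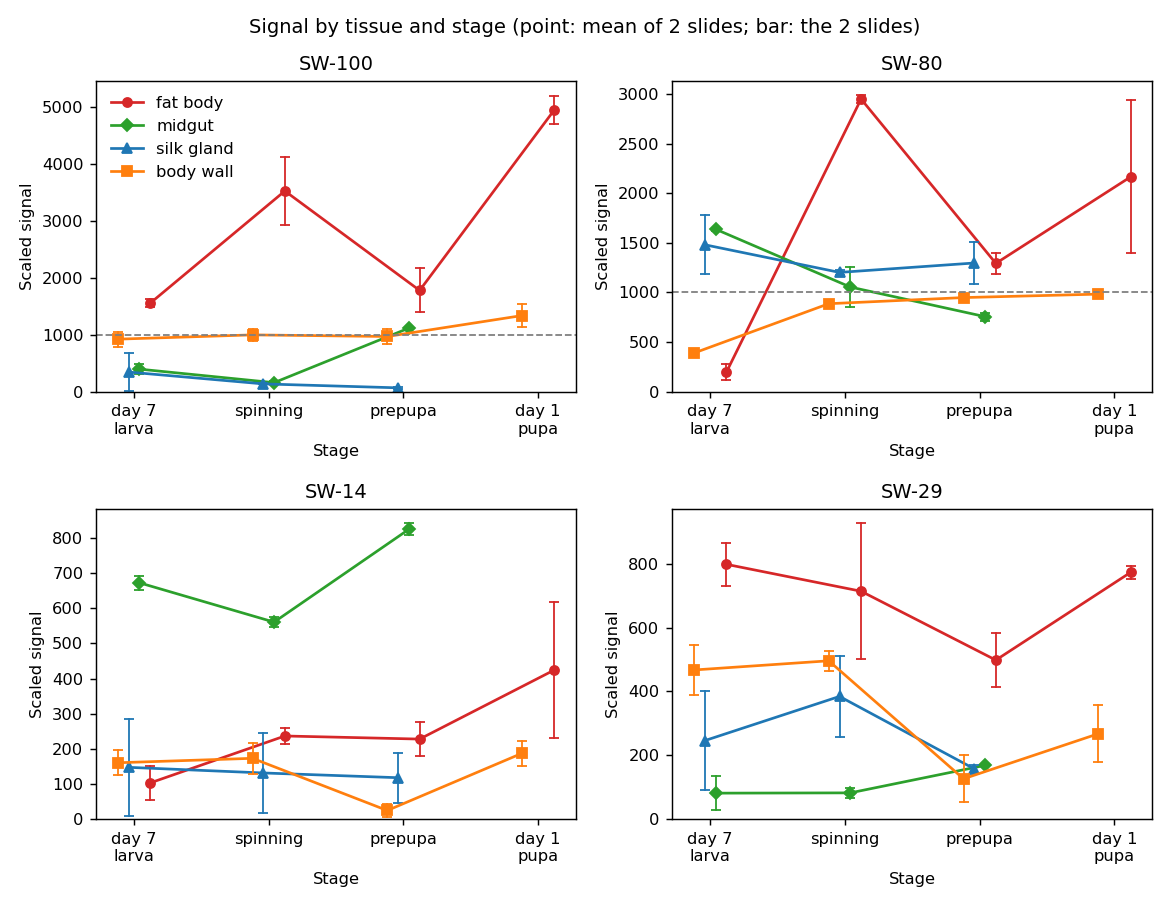
Scaled signal (y axis, linear, from 0) of SW-100, SW-80, SW-14 and SW-29 by stage (x axis) in fat body, midgut, silk gland and body wall; points are means of 2 slides, vertical bars join the 2 slides, and the dashed line is 1000. SW-100 and SW-29 are highest in the fat body at each stage and SW-14 in the midgut at each of the 3 stages the midgut was sampled, whereas the fat body line of SW-80 runs between 194 and 2949.

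SW-98 and SW-101 were the next members by signal. SW-98 had 2637, 707 and 2582 in the silk gland, 2363, 1461 and 1206 in the midgut, 387, 343, 1548 and 933 in the body wall, and 244, 616, 801 and 793 in the fat body. It was at 1000 or more in 6 specimens, none of them fat body. SW-101 was the most widespread member, at 1000 or more in 11 of the 14 specimens, with a median of 1482. It was under 1000 only in the body wall of day 7 larvae (471), the midgut of prepupae (936) and the fat body of prepupae (731), which are the 3 specimens with dim blank spots.

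The 8 further members among the 12 with the highest signals peaked in day 7 larvae, except SW-3. SW-51 had 2419 in the silk gland and 1648 in the midgut of day 7 larvae, and at most 931 elsewhere. SW-62 had 2419 and 1981 in these specimens and SW-67 2195 and 1783, and SW-67 was at 1000 or more in 7 specimens. SW-66 had 1953 and 1337, and SW-24 1998 and 1460. SW-60 had 2168 in the midgut and 1415 in the silk gland of day 7 larvae. SW-105 had 2081 in the midgut and 1458 in the silk gland of day 7 larvae, where the slides gave 2907 and 9.0, so that the order of these tissues is not settled for it. SW-3 had 1053, 615 and 1855 in the silk gland, and its next value outside that tissue was 973 in the midgut at the onset of spinning.

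The other 9 probes of the 21 were SW-34, SW-36, SW-77, SW-83, SW-85, SW-90, SW-95, SW-97 and SW-99. Their maxima lay between 1240 (SW-97) and 1802 (SW-77), that of SW-77 in the midgut and all others in the silk gland of day 7 larvae. SW-34, SW-36, SW-90, SW-95 and SW-97 were at 1000 in that silk gland specimen alone. For SW-34 this held for the mean of the slides only, which gave 1744 and 804.

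The 13 members whose slide means were under 1000 in all 32 specimens were SW-10, SW-12, SW-14, SW-15, SW-16, SW-29, SW-82, SW-84, SW-87, SW-88, SW-89, SW-103 and SW-104. Their highest metamorphosis signals lay between 73.8 and 860 (median 542), and 7 of them were at 500 or more at least once. For 3 of the 7, the maximum averages a slide past 1000 and a slide near 0: SW-12 and SW-82 had 1463 and 1428 on slide a and 9.0 on slide b in the silk gland of day 7 larvae, and SW-104 had 1146 and 6.0 in the body wall of prepupae. Those with the 3 lowest maxima, SW-10, SW-16 and SW-103, were under 100 in at least 13 of the 14 metamorphosis specimens. SW-10 had 73.8, 36.3, 6.0 and 37.2 in body wall, 9.5, 12.5 and 9.5 in the silk gland, 8.0, 7.0 and 67.7 in the midgut, and 13.5, 15.2, 10.8 and 21.2 in the fat body. SW-16 had 142, 10, 6.0 and 16.2 in body wall, 9.5, 12.5 and 68.5 in the silk gland, 8.0, 20 and 22.3 in the midgut, and 13.5, 56.0, 62.8 and 60.8 in the fat body. Among the metamorphosis specimens, SW-10 and SW-16 were highest in the body wall of day 7 larvae, which had the lowest median signal over all probes.

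SW-103 had 151, 9.5, 6.0 and 63.5 in body wall, 15.0, 12.5 and 32.2 in the silk gland, 8.0, 37.3 and 80.5 in the midgut, and 13.5, 14, 48.7 and 11 in the fat body. Its fat body values in metamorphosis were thus all under 50, beside 790 and 738 in the fat body of day 3 larvae on the separate scale.

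Those with the 3 highest maxima under 1000 were SW-87, SW-14 and SW-29. SW-87 had 860, 609 and 467 in the silk gland, 539, 155 and 731 in the midgut, 124, 153, 56.5 and 433 in the body wall, and 164, 579, 296 and 417 in the fat body. It followed no single tissue. SW-14 had 672, 561 and 824 in the midgut, against 161, 173, 25.0 and 188 in body wall, 148, 132 and 118 in the silk gland, and 103, 237, 228 and 425 in the fat body. All midgut means were above all others. By slide they overlapped, since slide b of the fat body pupa gave 617 and the midgut at the onset of spinning 574 and 547. SW-29 had 798, 714, 498 and 773 in the fat body, against 467, 496, 127 and 268 in body wall, 246, 385 and 158 in the silk gland, and 81.8, 82.7 and 169 in the midgut. The fat body means of SW-29 were all above those of the other tissues, by 498 against 496 at the closest. Its slides overlapped: slide b of the fat body of prepupae gave 414, and the body wall at the onset of spinning 527 and 465.

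Differences between tissues were tested with limma over all 106 probes, on log2 signals with values of a slide under 100 set to 100, which understates the change of dim probes. Tissue and stage were factors, and the p-values were adjusted by Benjamini-Hochberg over the 106 probes. Since each tissue and stage has 1 specimen, the error is the spread left after tissue and stage, and an interaction between them cannot be separated from it. Tissue and session were partly confounded, since all fat body specimens and most silk gland and midgut specimens each fell in 1 session. Their parts in a difference can thus not be fully told apart. By the F test, 7 of the 34 members differed between tissues, against 31.1% of all 106 probes. These were SW-3, SW-14, SW-29, SW-77, SW-90, SW-95 and SW-100, with adjusted p of 0.00073 (SW-14) to 0.0411 (SW-95).

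In the fat body, SW-100 and SW-29 were higher than in the mean of the other tissues and SW-60 was lower. SW-100 was higher by 2.56 ± 0.52 (log2, SE; 5.92-fold, adjusted p = 0.00339, limma), and SW-29 by 1.73 ± 0.36 (3.32-fold, adjusted p = 0.00389, limma). SW-60 was lower by 4.48-fold (log2 difference -2.16 ± 0.62, adjusted p = 0.0227, limma). Of all 106 probes, 3.77% were higher and 14.2% lower in the fat body. The difference of SW-60 was -1.11 with the session as a fixed block (adjusted p = 0.18, limma) and -1.28 with it as a random block (0.116). It was not called without the fat body of day 7 larvae (-1.63, adjusted p = 0.153), prepupae (-2.23, 0.0733) or pupae (-2.10, 0.0626). Nor was it called without the body wall of pupae (-2.10, 0.0585). With the session as a fixed block SW-100 was higher by 2.10 (adjusted p = 0.0699, limma) and within the largest session by 2.40 (adjusted p = 0.00187). SW-29 had 1.26 within that session (adjusted p = 0.152).

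In the midgut, SW-14 was higher and SW-29 lower. SW-14 was higher by 2.10 ± 0.31 on the log2 scale (4.28-fold, adjusted p = 0.000291, limma), and SW-29 differed by -1.52 ± 0.40 (2.86-fold lower, adjusted p = 0.015, limma). Among all probes 9.43% were higher and 3.77% lower in the midgut. The midgut has 1 specimen in the largest session, so only differences are given there, 2.39 for SW-14 and -0.8 for SW-29. The call of SW-29 was lost in 7 of 25 settings. Among them were a floor of 10 for dim slides (adjusted p = 0.0553, limma), slide b alone (0.101) and the slide letter as a block (0.122). It was also lost without the midgut of day 7 larvae (0.139) or at the onset of spinning (0.21). The SW-29 means of these 2 specimens, 81.8 and 82.7, were under the floor of the main test. Without both the silk gland and the midgut of day 7 larvae, its adjusted p was 0.0947.

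In the silk gland, SW-100 was lower and SW-3, SW-90 and SW-95 were higher. SW-100 was 6.13-fold lower (-2.62 ± 0.57, adjusted p = 0.00776, limma), a difference that was not called without the silk gland of prepupae (-2.12, adjusted p = 0.0782) or on slide a alone (-2.14, adjusted p = 0.0617). SW-3 was 3.34-fold higher (1.74 ± 0.48, adjusted p = 0.0274, limma), SW-90 2.85-fold (1.51 ± 0.48, adjusted p = 0.039) and SW-95 2.54-fold (1.35 ± 0.47, adjusted p = 0.0491). Of all probes 17.0% were higher and 8.49% lower in the silk gland.

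In the body wall, 8 members were lower and 0 higher, against 24.5% lower and 7.55% higher of all 106 probes. They were SW-3, SW-14, SW-66, SW-77, SW-87, SW-90, SW-97 and SW-99, with log2 differences of -1.51 (SW-87) to -1.06 (SW-14) and adjusted p of 0.0179 (SW-14) to 0.0496 (SW-97). Without the body wall of day 7 larvae 1 member was called, and leaving out any 1 of the 14 specimens gave 1 to 7.

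Which members were called, and the balance of higher and lower calls in body wall and silk gland, depended on the scale of the arrays, although no called difference changed its sign. The median difference over all 106 probes was -0.57 for body wall, 0.59 for silk gland, 0.51 for midgut and -0.54 for fat body, and the members' medians were -0.47, 0.42, 0.48 and -0.31. Centring each array on its median moved the median of all probes by 0.85, -0.91, -0.52 and 0.58 in the same tissues. On the centred scale 3 members were higher and 0 lower in the body wall (SW-60, SW-100 and SW-104), 0 higher and 3 lower in the silk gland (SW-14, SW-84 and SW-100), 2 higher and 1 lower in the midgut, and 2 higher and 1 lower in the fat body. On net signals before the authors' scaling, the counts of higher and lower members were 0 and 1 for body wall, 0 and 1 for silk gland, 1 and 1 for midgut, and 2 and 0 for fat body. On all 3 scales SW-100 and SW-29 were called higher in the fat body, SW-14 higher and SW-29 lower in the midgut, and SW-100 lower in the silk gland. The silk gland differences of SW-3, SW-90 and SW-95 were 1.72, 1.51 and 1.33 on net signals (adjusted p = 0.142, 0.0944 and 0.198, limma) and 0.83, 0.61 and 0.44 on the centred scale (adjusted p = 0.201, 0.373 and 0.315), so that none was called on either.

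**Figure D5:**
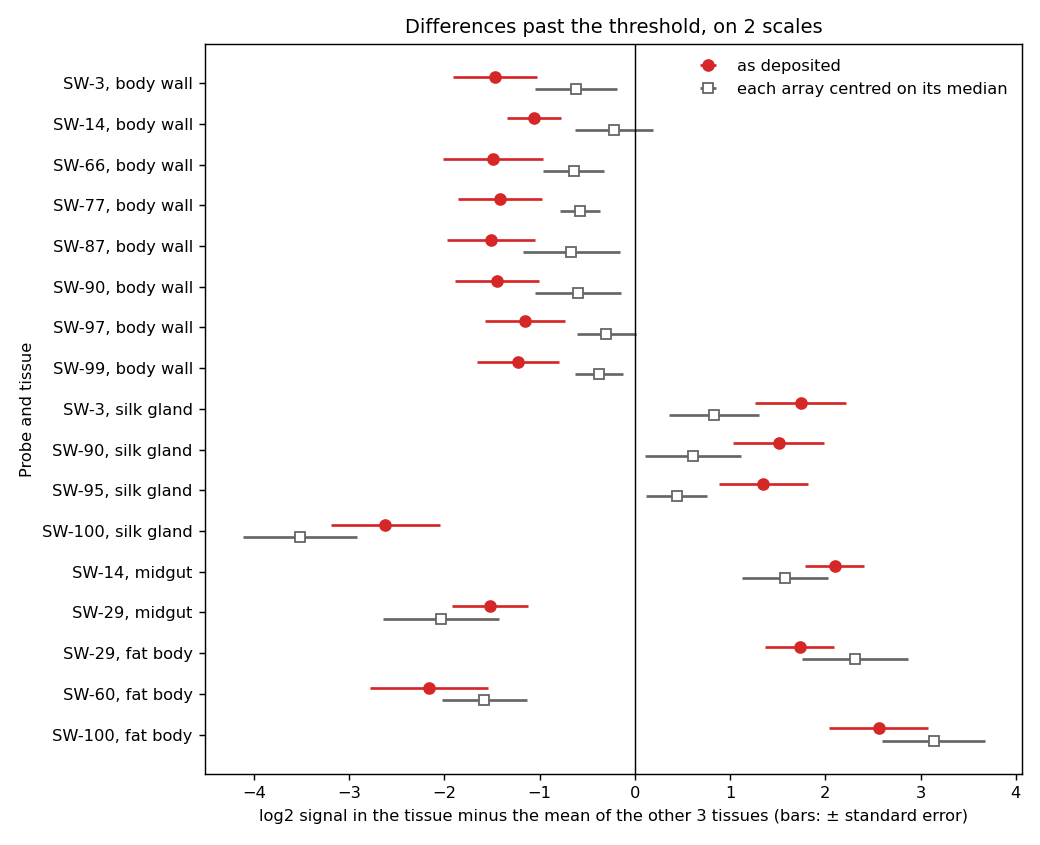
Differences of the members past the threshold between a tissue and the mean of the other 3 (x axis, log2; bars are standard errors), on the deposited scale (filled circles) and with each array centred on its median (open squares). The 8 body wall differences move toward 0 by centring. SW-100, SW-29 and SW-60 in the fat body, SW-14 and SW-29 in the midgut and SW-100 in the silk gland stay past the threshold on both.

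No member passed the test for a change with stage. With tissue as a factor, a common slope per stage step from day 7 larvae to pupae was past the threshold for 0 members (smallest adjusted p = 0.372, limma; 0 at an unadjusted p under 0.05), against 1.89% of all probes with a positive and 0.943% with a negative slope. Slopes within a tissue were past it for no pair of a probe and a tissue (0% of 424). At an unadjusted p under 0.05 were 16 pairs among the members. These were 4 in the body wall, 7 in the silk gland, 0 in the midgut and 5 in the fat body, against 29, 8, 2 and 11 of all 106 probes. Nearest to the threshold was SW-24 in the silk gland, with 1998, 1080 and 30.5 from day 7 larvae to prepupae (-2.15 ± 0.45 per step, adjusted p = 0.0629, limma). In the fat body SW-88 had 89.0, 324, 244 and 542 from day 7 larvae to pupae (0.67 ± 0.22 per step, adjusted p = 0.289, limma). A difference between the slopes of the 4 tissues was called for 0 members (smallest adjusted p = 0.218, limma, for SW-24) and 0 of all probes. At an unadjusted p under 0.05 were 4 members, against 7 of all 106 probes.

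The members shared some features that the rule did not use. By number, 18 of the 34 were among the 27 probes from SW-80 on, and 9, 6 and 19 were in SW-1 to SW-35, SW-36 to SW-70 and SW-71 to SW-106. In metamorphosis the share of pixels brighter than the local background by over 2 SD had a median per specimen of 5.7% to 72% for the members and 39.6% to 100% for the other probes, and the blank spots had 11% to 100%. The median gap between the slides of a specimen was 0.31 (log2) for members and 0.21 for the other probes, and the 3 spots of a probe had a median coefficient of variation of 6.6% and 5.3%. The dimmer probes were thus the less closely repeated, and at these signals the 2 slides limit what can be told apart.

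The probes most like the 3 brightest members were found by Spearman correlation over the 14 specimens, which share arrays, scaling and sessions. For SW-100 they were SW-18 (0.78), the member SW-29 (0.71) and SW-27 (0.64). SW-18 and SW-27 had maxima of 21088 in the fat body at the onset of spinning and 40375 in the fat body of pupae. For SW-80 they were SW-86 (0.83), SW-9 (0.68) and SW-42 (0.66), of which SW-9 had the highest signal of the metamorphosis set, 77566 in the fat body at the onset of spinning. SW-86 had its maximum in the fat body of pupae (2238), and SW-42 in the silk gland of day 7 larvae (2267). For SW-98 they were SW-64 (0.90), SW-2 (0.89) and SW-70 (0.89), with maxima in the silk gland of 2974, 2606 and 2138.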

How the data were processed

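Small RNA was labelled with Cy3 and hybridized to a one-colour array. The authors read the slides with LuxScan and deposited spot intensities with the local background subtracted, negative net signals set to 10, outlier spots replaced, and each array multiplied by 1 factor (0.629 to 1.465 in metamorphosis). By the methods, the factor rests on U6 and 5S rRNA for the larval arrays and on a global median for metamorphosis, where the results text gives a global mean. Its basis could not be derived from the deposited data. The scaled metamorphosis specimens were not matched on the median over the 106 probes, which ran from 388 to 2315. The deposited series table holds the mean intensity over the 3 spots of a probe, which was used as given. The percent of pixels above background is as deposited in the scanner files. Signals of slides a and b were averaged for levels. For the tests, each slide's signal was raised to a floor of 100 and taken to log2, and the 2 slides were averaged, then tested in limma 3.58.1 (R 4.3.3, eBayes with a trend) over all 106 probes, 1 value per specimen, and a call is an adjusted p under 0.05. The p-values measure only the spread between these specimens. Tables were made with Python 3.11.15 and pandas 2.3.3.

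The members, lists and tests were chosen with earlier results of these data known. The named probes were the 12 brightest and the 13 dim members, those past a threshold, the neighbours of the larval threshold and the 3 most alike probes of the 3 brightest members. SW-24 and SW-88 were named after their values were seen. Sessions are the stamps shared by array files: of the 14 metamorphosis specimens, 8, 5 and 1 are in 3 sessions. The session of 8 holds all fat body specimens and the body wall at the onset of spinning and of pupae. It also holds the silk gland at the onset of spinning and the midgut of prepupae. The session of 5 holds the other silk gland and midgut specimens and the body wall of prepupae. The body wall of day 7 larvae is alone in its session. The alternatives were the floor, the scale, the slides, a filter, the session and slide letter as blocks, the variance trend and leaving out each specimen.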

Additional observations from a re-analysis of the deposited data

How the results depend on the processing

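The count of members at 1000 (21) was 9 at a threshold of 2000, 8 when the signal had also to exceed the blank spots, 44 with members chosen without larval body wall and malpighian tubule, and 13 without the silk gland and midgut of day 7 larvae (an alternative added after the data were seen). Leaving out 1 specimen gave 16 to 21. Pairs above the blank spots (88) were 52 at 2 times the blank spots, 7 without the 3 specimens with dim blank spots (added after the data were seen), and 56 (without the body wall of day 7 larvae) to 88 without 1 specimen. The cause of the changes below was not tested.

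Members called by the F test (7) were 11 with a floor of 10, 3 with a floor of 1000, 4 on net signals, 4 on slide a, 3 with the session as a fixed block and 3 without the silk gland and midgut of day 7 larvae. Leaving out 1 specimen gave 3 to 12. The body wall count (0 higher, 8 lower) became 5 with a floor of 10, 0 with a floor of 1000 and 3 (all higher) with arrays centred. It was 1 on net signals, 2 on slide b and 2 among probes at 1000 in 3 specimens. With the session as a fixed and a random block it was 2 and 5. Without silk gland and midgut of day 7 larvae it was 1, and without 1 specimen 1 to 7. The silk gland count (3 higher, 1 lower) became 3 with a floor of 10 (1 higher, 2 lower) and 3 with arrays centred (all lower). It was 1 on net signals (lower), 1 on slide a and 2 with the filter. With the session as a fixed and a random block it was 2 and 7, and without a variance trend 7. Without silk gland and midgut of day 7 larvae it was 1 (lower), and without 1 specimen 0 to 7. The midgut count (2) became 1 with a floor of 10, 0 with a floor of 1000, 1 on slide b and 0 with the filter. Without silk gland and midgut of day 7 larvae it was 1, and without 1 specimen 1 to 4. The fat body count (2 higher, 1 lower) became 1 with a floor of 1000 and 3 with the filter (1 higher, 2 lower). It was 1 with the session as a fixed block and 2 to 4 without 1 specimen. No count is given within the largest session, where silk gland and midgut have a single specimen each. Common slopes were 0 in every setting run. Slopes within a tissue (0) were 10 with a floor of 1000, 1 each with a floor of 10, on slide a, with the filter and with the session as a random block, and 0 to 1 without 1 specimen.

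The slide letters a and b name technical slides of 1 RNA and do not pair specimens. With the slide letter as a replicate block over the 28 arrays and the specimen as a random block, the counts were 6 by the F test, 4 in the body wall, 4 in the silk gland, 2 in the midgut, 3 in the fat body, 0 for the common slope and 1 within a tissue. A floor of 1000 leaves no value for SW-14 and SW-29, which were under it on every slide. The higher signal of SW-100 in the fat body was past the threshold in 26 of 27 settings, which reuse the same specimens. It was not past it with the session as a fixed block (adjusted p = 0.0699, limma). No called difference of a single member changed direction.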
